A study of Mus musculus with 10 samples.

Results

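The type 2 cytokine genes Il4, Il5 and Il13, with the genes that lie beside them and 4 of their regulators, were followed in CD4-positive spleen cells of 2 mouse strains before and after stimulation. The 9 genes are Il4, Il5, Il13, Rad50, Kif3a, Gata3, Maf, Il4ra and Stat6, taken by symbol from 19938 genes measured with a probe set of 1 symbol, and each has 1 such probe set. Cells were sorted from spleens with magnetic CD4 beads. NOD mice (genotype NODk) gave 2 arrays of stimulated cells (T1) and 3 of unstimulated cells (T0), and B10 mice (genotype B10Br) likewise gave 2 at T1 and 3 at T0. All mice were females of 8 weeks, and stimulated cells were cultured for 4 hours with ionomycin (1 uM) and PMA (10 ng/ml). T0 is called basal, yet the protocol also reads as culture of the unstimulated cells, so its handling is unclear. The replicates are called biological without naming the animals, so p-values measure the spread between these samples. T1 replicate 1 is not analysed here.

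IL-4, IL-5 and IL-13 are the defining cytokines of type 2 helper T cells and drive antibody class switching to IgE, eosinophil growth and mucus production. Their genes share a cluster in which Rad50, a DNA repair gene that contains the locus control region of the cytokines, lies between Il5 and Il13, and Kif3a, a kinesin motor gene, lies next to Il4. GATA3 and MAF are transcription factors that activate these genes, and IL-4 signals through its receptor chain, encoded by Il4ra, to the transcription factor STAT6. PMA activates protein kinase C and ionomycin lets calcium into the cell, which together activate the transcription factors AP-1 and NFAT.

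The promoters of the 3 cytokine genes are shown because their responses differ most among the 9 genes. Each is the 250 bases before the gene's start in RefSeq (assembly GRCm38.p6), on chromosome 11, read 5′ to 3′ along the gene, with the NFAT core (GGAAA, which reads TTTCC on the other strand) in capitals. Il4 has 2 promoter entries, and the one with the outermost start is used. Il4 lies on the minus strand at chr11:53618666-53618915, Il13 on the minus strand at chr11:53634703-53634952 and Il5 on the plus strand at chr11:53720544-53720793.
Il4: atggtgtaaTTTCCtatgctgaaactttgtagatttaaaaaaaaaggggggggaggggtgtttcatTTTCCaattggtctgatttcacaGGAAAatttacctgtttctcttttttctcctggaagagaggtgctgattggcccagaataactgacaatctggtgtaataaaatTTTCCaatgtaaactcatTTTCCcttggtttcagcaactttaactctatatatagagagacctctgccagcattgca
Il13: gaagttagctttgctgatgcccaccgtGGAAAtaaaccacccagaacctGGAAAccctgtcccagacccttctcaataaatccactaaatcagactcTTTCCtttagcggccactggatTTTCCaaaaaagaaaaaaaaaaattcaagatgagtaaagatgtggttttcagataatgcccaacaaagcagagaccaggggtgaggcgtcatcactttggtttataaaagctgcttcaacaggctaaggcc
Il5: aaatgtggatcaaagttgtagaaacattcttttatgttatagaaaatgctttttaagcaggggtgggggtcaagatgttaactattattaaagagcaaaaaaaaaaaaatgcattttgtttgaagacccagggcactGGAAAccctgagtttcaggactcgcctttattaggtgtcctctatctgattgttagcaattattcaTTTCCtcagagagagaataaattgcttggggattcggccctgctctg
The NFAT core occurs 5 times before Il4, 4 times before Il13 and 2 times before Il5. Of 32851 mouse promoters of this length, 0.4% hold at least 5 cores, 1.6% at least 4 and 21.4% at least 2. Among the other genes with a promoter entry, Gata3 has 2 cores and Kif3a, Il4ra and Stat6 have 1 each. MAF half-sites (TGCTGA, both strands) number 3 before Il4, which 0.1% of promoters reach, against 1 each before Il13 and Gata3. A GATA site (AGATAA, or the same letters with T first, and either of these with G as the last letter, both strands) occurs 1 time before Il5 and 1 time before Il13, as at least 1 does in 26.5% of promoters. A STAT6 site (TTC and GAA with 4 bases between) occurs 1 time before Il4, where it overlaps an NFAT core, and in 5.9% of promoters. The AP-1 site TGANTCA has no match in these windows. A match in letters is a description and not evidence of binding.

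Values below are log2 intensities as deposited, and a difference of 1 is a 2-fold change. A gene was called where limma's adjusted p was under 0.05 over all genes, and errors of differences are standard errors. Levels of one gene are not set against those of another, because probes differ in brightness. Each strain difference of a member rests on 1 probe set, and strain differences in sequence under the probes were not tested. Background levels are not used here, so changes of dim genes may be understated, to an extent that was not tested. Array medians lay between 6.18 and 6.23, and over all genes arrays of the same group correlated by 0.990 to 0.996 and arrays of different groups by 0.937 to 0.991. Of the markers of CD4 T cells, 8 of 9 were measured, and their mean level on an array was 9.68 to 9.94 in NOD T1, 10.54 to 10.65 in NOD T0, 9.87 to 9.99 in B10 T1 and 10.65 to 10.68 in B10 T0. Cd4, the gene of the sort, was lower after stimulation in both strains, by 1.72 in NOD and 1.46 in B10 (log2).

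**Figure D1:**
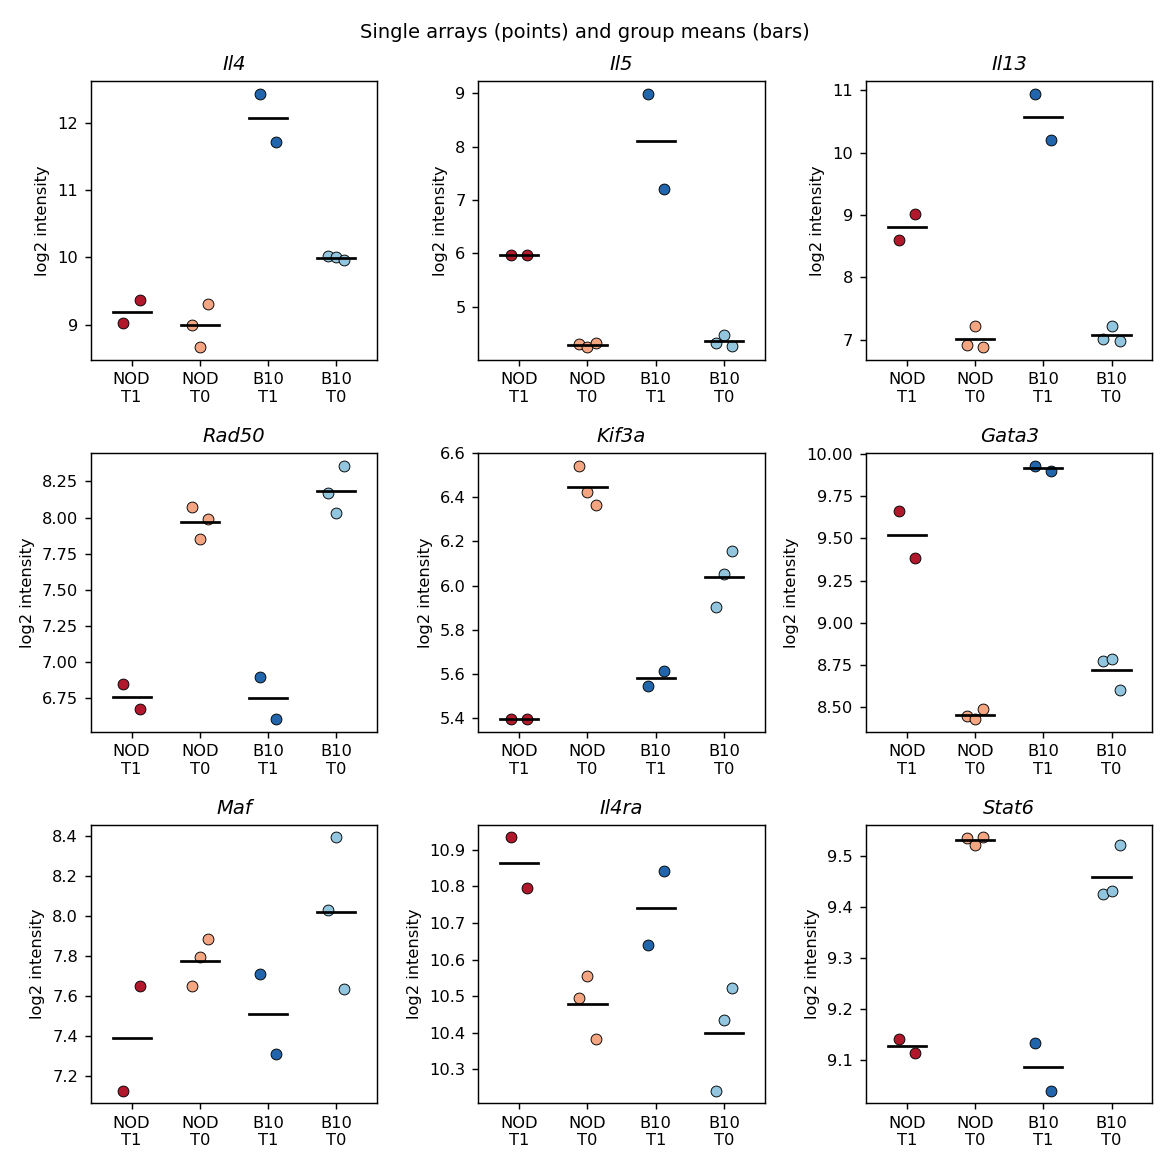
Log2 intensity of the 9 genes on each array (points) with group means (bars), by strain and state. Il4 on both NOD T1 arrays (9.02 and 9.36) lies below all B10 arrays, while the stimulated B10 arrays reach 12.44 and 11.72.

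Il4, which encodes the cytokine that commits T cells to the type 2 fate, was lower in NOD in both states. It read 9.02 and 9.36 on the NOD T1 arrays, against 8.99, 8.66 and 9.31 on the NOD T0 arrays. In B10 it read 12.44 and 11.72 at T1, against 10.02, 10.01 and 9.96 at T0. The NOD states overlapped, the B10 states did not, and every B10 array lay above every NOD array. On stimulation the difference in NOD was 0.20 ± 0.21 (log2, 95% interval -0.25 to 0.65, adjusted p = 0.481), while Il4 rose 4.23-fold in B10 (2.08 ± 0.21, adjusted p = 4.45e-06). NOD was 2.01-fold lower than B10 at T0 (log2 -1.01 ± 0.19, adjusted p = 0.00688) and 7.41-fold lower at T1 (-2.89 ± 0.23, adjusted p = 3.42e-05). In mixed cells such as these, fewer cells that express a gene and less RNA per cell cannot be told apart.

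Il13, whose product acts on airway and gut lining, rose in both strains and reached a lower level in NOD. It read 8.60 and 9.02 at T1 in NOD, against 6.92, 7.21 and 6.88 at T0. In B10 it read 10.94 and 10.20 at T1, against 7.01, 7.22 and 6.97 at T0. T1 lay above T0 without overlap in each strain, and the strains overlapped at T0 and not at T1. The rise was 3.49-fold in NOD (log2 1.80 ± 0.20, adjusted p = 1.05e-05) and 11.3-fold in B10 (3.50 ± 0.20, adjusted p = 3.79e-08). NOD was 3.39-fold lower than B10 at T1 (log2 -1.76 ± 0.22, adjusted p = 0.000954), and at T0 the difference was -0.06 (95% interval -0.45 to 0.32).

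Il5, the growth factor of eosinophils, had the same order of groups with a wide spread between the stimulated B10 arrays. It read 5.98 on both NOD T1 arrays, against 4.30, 4.24 and 4.31 at T0. In B10 it read 8.99 in replicate 2 and 7.21 in replicate 3 at T1, against 4.33, 4.46 and 4.27 at T0. The states did not overlap in either strain, and both B10 T1 arrays lay above both NOD T1 arrays. Il5 rose 3.23-fold in NOD (log2 1.69 ± 0.34, adjusted p = 0.00158) and 13.4-fold in B10 (3.74 ± 0.34, adjusted p = 2.08e-06). NOD was 4.35-fold lower at T1 (log2 -2.12 ± 0.37, adjusted p = 0.0092), and the difference was -1.23 without B10 T1 replicate 2, -3.01 without B10 T1 replicate 3, and not called without NOD T1 replicate 3 (-2.12, adjusted p = 0.0635). At T0 the strains differed by -0.07 (95% interval -0.73 to 0.59).

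Whether the strains differed in their response was tested as the NOD response minus the B10 response. The response was smaller in NOD for Il4 (log2 -1.88 ± 0.29, adjusted p = 0.0216) and Il13 (-1.70 ± 0.28, adjusted p = 0.0307), so 2 of the 9 genes were called lower, where 0.15% of all genes were. Limma called 0 higher, also at an unadjusted p under 0.05, where 0.0953% of all genes were called. Il5 gave -2.05 ± 0.48 (adjusted p = 0.137). These calls lie close to the threshold. That of Il4 ended (adjusted p 0.0521 to 0.0811) without any one of NOD T1 replicates 2 and 3, NOD T0 replicate 1, B10 T1 replicate 2 and B10 T0 replicates 1, 2 and 3, with values of -2.05 to -1.52. That of Il13 ended (adjusted p 0.053 to 0.0909) without any one of NOD T1 replicates 2 and 3, NOD T0 replicates 1, 2 and 3, B10 T1 replicate 2 and B10 T0 replicates 1 and 3, with values of -1.91 to -1.32. Il5 gave -1.16 without B10 T1 replicate 2 and -2.94 without replicate 3. Each of these fits leaves 1 B10 T1 array, so the spread between those arrays (8.99 and 7.21) drops out of the error. They therefore cannot show whether the Il5 difference holds.

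**Figure D2:**
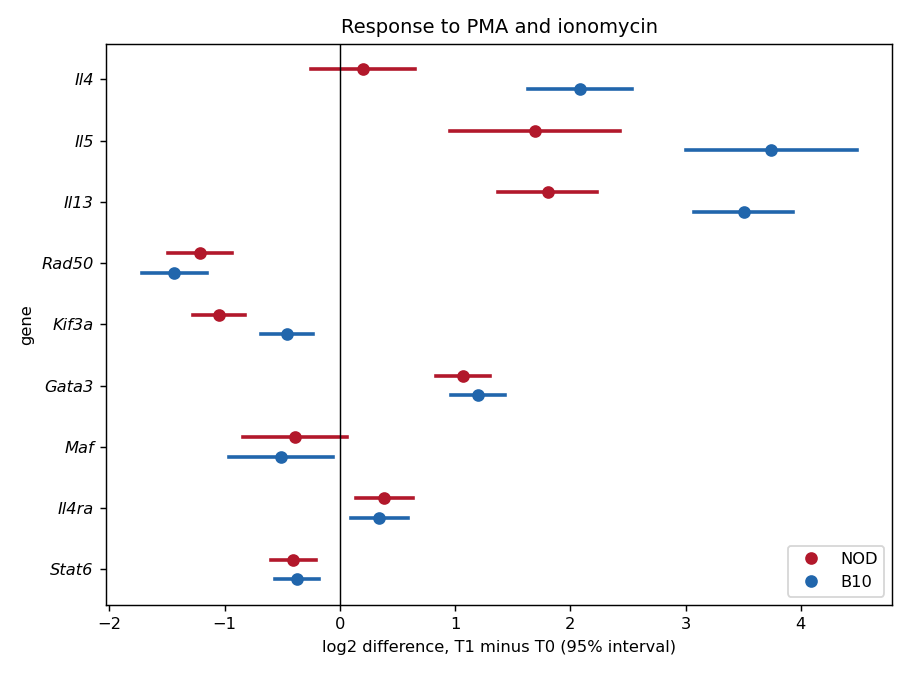
Log2 difference of T1 minus T0 for the 9 genes (points) with 95% intervals (lines), in NOD (red) and B10 (blue). Il4, Il5 and Il13 respond by 0.20, 1.69 and 1.80 in NOD, against 2.08, 3.74 and 3.50 in B10.

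Rad50, which lies between Il13 and Il5, and Kif3a, which lies next to Il4, went the other way. Rad50 read 6.85 and 6.67 at T1 in NOD, against 8.07, 7.85 and 7.99 at T0, and 6.90 and 6.60 at T1 in B10, against 8.17, 8.03 and 8.36 at T0. It fell by 1.21 on the log2 scale in NOD (adjusted p = 8.04e-06) and by 1.44 in B10 (adjusted p = 1.81e-06), with no overlap of states, and the strains overlapped in both states. Kif3a, a subunit of the motor that builds cilia, read 5.40 on both NOD T1 arrays, against 6.54, 6.42 and 6.37 at T0, and 5.54 and 5.62 at T1 in B10, against 5.90, 6.05 and 6.15 at T0. It fell by 1.05 in NOD (adjusted p = 4.21e-06) and by 0.46 in B10 (adjusted p = 0.00362). The NOD and B10 arrays were apart in both states, with NOD above B10 at T0 and below at T1. The difference was called at T0 (0.41 ± 0.092, adjusted p = 0.0207) and not at T1 (-0.18, adjusted p = 0.474), and the response difference was -0.59 ± 0.15 (adjusted p = 0.166). The call at T0 ended without NOD T0 replicate 1 (0.36, adjusted p = 0.0994) or 3 (0.45, adjusted p = 0.052), or without B10 T0 replicate 1 (0.34, adjusted p = 0.102) or 2 (0.41, adjusted p = 0.0724).

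**Figure D3:**
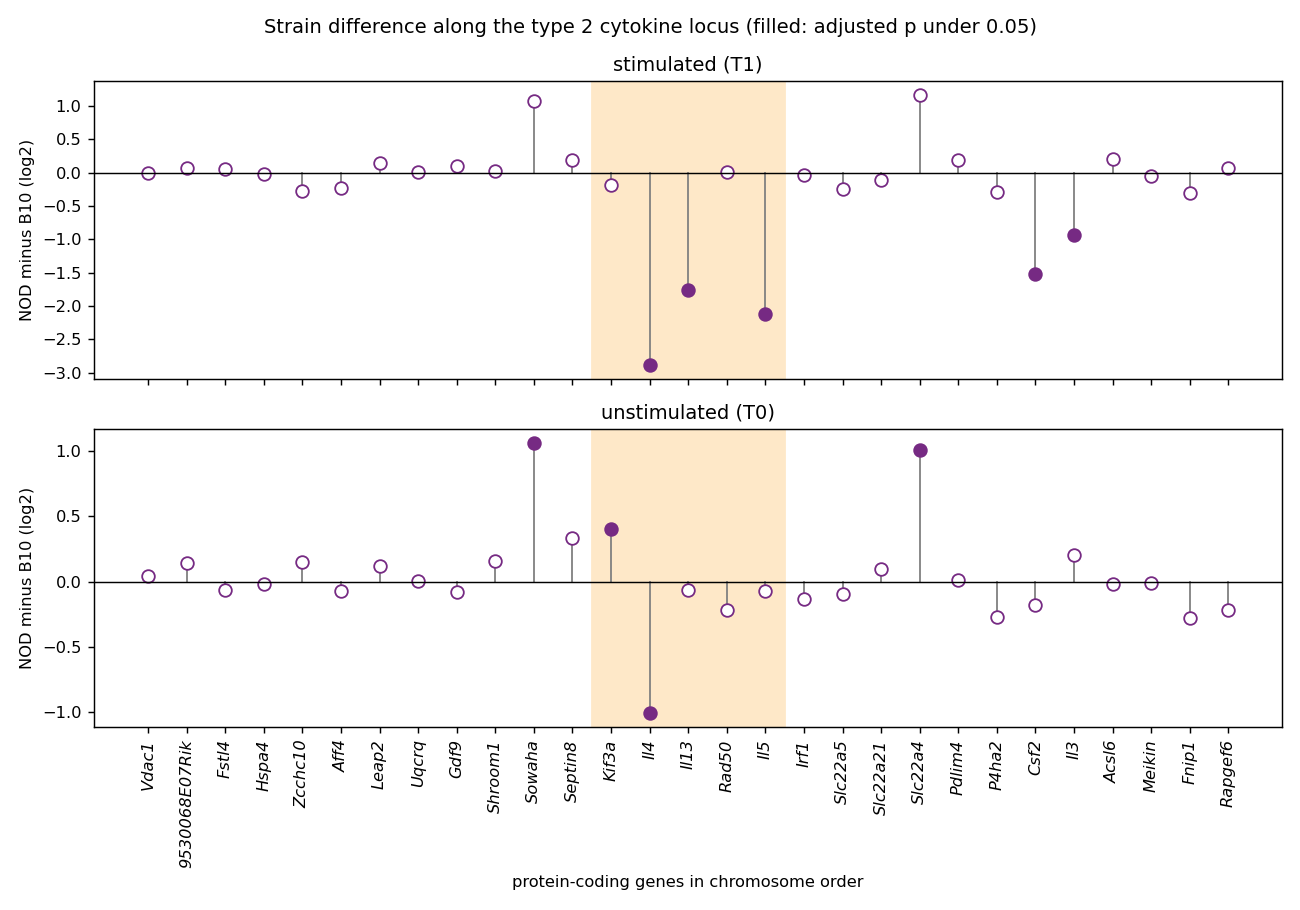
NOD minus B10 (log2) at T1 (top) and T0 (bottom) for the type 2 cytokine block (shaded) and 12 protein-coding neighbours on each side, in gene order and not to scale, with filled points where the adjusted p was under 0.05. Il4, Il13, Il5 and, farther along, Csf2 and Il3 are lower in NOD at T1, while Rad50 within the block differs by 0.01.

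Of the transcription factors, Gata3, the master regulator of type 2 cells, rose in both strains. It read 9.66 and 9.38 at T1 in NOD, against 8.45, 8.43 and 8.49 at T0, and 9.93 and 9.90 at T1 in B10, against 8.77, 8.78 and 8.60 at T0. States did not overlap, and in each state every NOD array lay below every B10 array. The rise was 2.10-fold in NOD (log2 1.07 ± 0.11, adjusted p = 4.83e-06) and 2.30-fold in B10 (1.20 ± 0.11, adjusted p = 1.75e-06), with a response difference of -0.13 (95% interval -0.46 to 0.20). NOD minus B10 was -0.26 at T0 (adjusted p = 0.166) and -0.39 at T1 (adjusted p = 0.0934), neither called, though the T1 difference passed without NOD T1 replicate 2 (-0.53, adjusted p = 0.0378). Maf, which activates Il4, read 7.13 and 7.65 at T1 in NOD, against 7.65, 7.79 and 7.89 at T0, and 7.71 and 7.31 at T1 in B10, against 8.03, 8.40 and 7.64 at T0. Its strains overlapped in both states. No difference of Maf was called, with stimulation differences of -0.39 in NOD (adjusted p = 0.171) and -0.51 in B10 (adjusted p = 0.087). The B10 difference passed without B10 T0 replicate 3 (-0.70, adjusted p = 0.0164).

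Il4ra and Stat6, the receptor chain and the transcription factor of the IL-4 signal, moved in opposite directions on stimulation. Il4ra read 10.93 and 10.80 at T1 in NOD, against 10.50, 10.55 and 10.38 at T0, and 10.64 and 10.84 at T1 in B10, against 10.24, 10.43 and 10.52 at T0. It rose by 0.39 ± 0.11 in NOD (log2, adjusted p = 0.0183) and by 0.34 ± 0.11 in B10 (adjusted p = 0.0363). The call in NOD ended without NOD T1 replicate 2 (0.32, adjusted p = 0.107) or NOD T0 replicate 3 (0.34, adjusted p = 0.0692). In B10 it ended without B10 T1 replicate 3 (0.24, adjusted p = 0.283), B10 T0 replicate 1 (0.26, adjusted p = 0.129) or B10 T0 replicate 2 (0.36, adjusted p = 0.0644). Stat6 read 9.14 and 9.11 at T1 in NOD, against 9.54, 9.52 and 9.54 at T0, and 9.13 and 9.04 at T1 in B10, against 9.43, 9.43 and 9.52 at T0. It fell by 0.40 in NOD (adjusted p = 0.00307) and by 0.37 in B10 (adjusted p = 0.00526), and the B10 call ended without B10 T1 replicate 3 (-0.33, adjusted p = 0.0581). Neither gene differed between strains past the threshold (T0 0.08 and 0.07, T1 0.12 and 0.04).

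Counted together, 4 of the 9 genes rose in NOD, where 16.1% of all genes did, and 3 fell, against 19.5%. In B10, 5 rose (13.7% of all genes) and 3 fell (18.1%). Of the 9 genes, the median response was 0.20 in NOD and 0.34 in B10, and that of all genes was 0.08 and 0.03. Between strains at T0, 1 gene was higher in NOD (3.44% of all genes) and 1 lower (2.35%). At T1, 3 were lower in NOD (1.83%), and the count higher was 0 by limma, also at an unadjusted p under 0.05 (1.77% of all genes). The median of the 9 genes was -0.07 at T0 and -0.18 at T1, and that of all genes was -0.01 and 0.01. With arrays scaled to one 75th percentile, the median response of all genes in NOD was higher by 0.13, and the split of all called genes was 5393 higher and 3145 lower, in place of 3201 and 3884. The members' stimulation calls in NOD were the same under that scaling. Many markers of B cells and of monocytes and macrophages fell on stimulation as well. B cell markers were lower for 5 of 7 in NOD and 4 of 7 in B10 (medians -0.91 and -0.88), among them Cd79b, a chain of the B cell receptor, by 3.78 in NOD and by 3.57 in B10. In B10, 1 of the 7 was higher, Cr2, with means of 8.82 at T1 and 7.45 at T0. Monocyte and macrophage markers were lower for 8 of 9 in each strain (medians -1.77 in NOD and -1.48 in B10). The part of these cells in the members' changes on stimulation was not tested.

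Over the 10 arrays, which fall into 4 groups, Il5 and Il13 had a Pearson's r of 0.984, Il4 and Il5 of 0.799, and Il4 and Il13 of 0.763, given as a description. Among 4282 genes that varied by at least 1 on the log2 scale, the 5 most like Il4 were Aste1 (0.979), Cd160 (0.955), Mapkbp1 (0.952), Tmbim1 (0.951) and Slc37a2 (0.949). Cd160 encodes a surface receptor of NK cells and some T cells. Most like Il5 were Olr1 (0.995), a receptor for oxidised lipoprotein, Ubash3b (0.984), a phosphatase that damps T cell receptor signalling, Il13, Tmem38b (0.982) and Trpm6 (0.978). Most like Il13 were Perp (0.990), Trpm6 (0.986), Il5, Mapre2 (0.981) and Mcu (0.981), the mitochondrial calcium uniporter. The arrays of a group share strain and state, and 10 arrays are few for such a ranking.

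Of the 24 neighbours, all were measured, and 6 rose and 2 fell in NOD, against 6 and 4 in B10 (2 fell without B10 T1 replicate 2). Of all genes, 16.1% rose and 19.5% fell in NOD, and 13.7% rose and 18.1% fell in B10. Fnip1, a partner of folliculin in nutrient sensing, rose by 1.54 in NOD and 1.57 in B10 (log2), and Irf1, an interferon-induced transcription factor, by 0.75 and 0.66. Between strains, 3.44% of all genes were called higher and 2.35% lower in NOD at T0, and 1.77% and 1.83% at T1. Csf2 (GM-CSF) and Il3, haematopoietic growth factors beyond Irf1, were the 2 neighbours called lower in NOD at T1. Csf2 read 8.25 and 7.87 at T1 in NOD, against 4.93, 5.02 and 5.14 at T0, and 9.78 and 9.37 at T1 in B10, against 5.24, 5.23 and 5.15 at T0. NOD was lower by 1.52 ± 0.15 at T1 (adjusted p = 0.000239), with a response difference of -1.34 (adjusted p = 0.0175) that was not called without any one of NOD T1 replicate 3, NOD T0 replicate 3, B10 T1 replicate 2, B10 T0 replicate 1 and B10 T0 replicate 3 (values -1.36 to -1.13). Il3 was lower at T1 by 0.93 ± 0.19 (adjusted p = 0.0179), not called without NOD T1 replicate 3 (-0.78, adjusted p = 0.13) or B10 T1 replicate 2 (-0.57, adjusted p = 0.117), and its response difference of -1.14 was not called (adjusted p = 0.095), though it passed without B10 T1 replicate 3 (adjusted p = 0.00418) and with trend and robust eBayes (adjusted p = 0.048). Sowaha, 2 genes from Kif3a, and Slc22a4, an organic cation transporter gene, were the 2 neighbours called higher in NOD at T0 (1.07 and 1.01). These calls ended without any one of NOD T0 replicates 1 and 3 and B10 T0 replicates 1 and 2 (0.89 to 1.09 for Sowaha, 0.76 to 1.04 for Slc22a4), and for Slc22a4 also without either NOD T1 array (1.01). At T1 the pair differed by 1.08 and 1.17 without a call. Both passed at T1 without B10 T1 replicate 3 (1.52 and 1.53) or B10 T0 replicate 3, and Slc22a4 also without B10 T0 replicate 2 (adjusted p 0.0168 to 0.0444).

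Of 14 other measured genes in a list of cytokines, receptors and related genes of helper T cells, 5 rose and 2 fell in NOD. Of all genes, 16.1% and 19.5% did. Those that rose in NOD were Il10, Il6, Ccr8, Furin and Il2ra, so not all are particular to type 2 cells. Il9, Il24, Il31, Il17rb, Ccr4, Ptgdr2 and Cysltr1 were not called in NOD. In B10, 7 rose and 2 fell, where 13.7% and 18.1% of all genes did. Their median response was 0.24 in NOD and 0.40 in B10. Il10, which encodes an inhibitory cytokine, rose by 4.11 in NOD and 4.39 in B10, and Il2ra, which encodes CD25, by 3.29 and 3.14. Ccr8, a chemokine receptor of type 2 cells, rose by 2.40 in each strain, and Il18r1, the IL-18 receptor, fell by 2.64 in NOD and by 1.69 in B10. Between strains the only call was Pparg, a nuclear receptor of type 2 cells, higher in NOD at T0 (0.67, adjusted p = 0.00881). Of all genes, 3.44% were called higher and 2.35% lower in NOD at T0, and 1.77% and 1.83% at T1. At T1 limma called 0 of the 14, with 4 lower at an unadjusted p under 0.05. Without B10 T1 replicate 3, Il18r1 (-1.07) and Il31 (-0.64) were called lower at T1, and without B10 T0 replicate 3, Ccr8 was called lower at T0 (-0.91). The falls numbered 1 in NOD without NOD T1 replicate 2, and 1 in B10 without B10 T1 replicate 2 or B10 T0 replicate 1.

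Of the 18 measured genes of IL-4 and IL-13 receptor signalling, 6 rose and 8 fell in NOD, where 16.1% and 19.5% of all genes did. In B10, 4 rose and 8 fell, where 13.7% and 18.1% of all genes did. The feedback inhibitor Cish (2.62 in NOD, 2.02 in B10) and the kinase Jak2 (1.51 and 1.13) rose, and Ptpn6, the phosphatase SHP-1, fell by 1.19 in NOD and by 1.54 in B10. The list's median response was -0.11 in NOD and -0.17 in B10. Called higher in NOD were 3.44% of all genes at T0 and 1.77% at T1. Socs5, an inhibitor of receptor signalling, was the single gene called between strains, higher in NOD at T0 (0.41, adjusted p = 0.0294) and at T1 (0.67, adjusted p = 0.0107). Its call at T0 ended without any one of NOD T0 replicates 1, 2 and 3 and B10 T0 replicates 2 and 3, and at T1 without NOD T1 replicate 3 or B10 T1 replicate 3. Without B10 T0 replicate 3, Socs1, another feedback inhibitor, was called lower in NOD at T0 (-0.48).

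Among 18 factors that promote type 2 expression, 8 rose and 7 fell in NOD (4 fell under 75th percentile scaling), and 8 rose and 6 fell in B10. Of all genes, 16.1% rose and 19.5% fell in NOD, and 13.7% rose and 18.1% fell in B10. Irf4, which acts with BATF on Il4 and related genes, rose by 2.57 in each strain, Batf by 2.84 in NOD and 2.47 in B10, and Gfi1, a repressor that favours type 2 cell growth, by 2.85 and 2.54. Ets1 fell by 2.32 in NOD and by 2.15 in B10. Called lower in NOD were 2.35% of all genes at T0 and 1.83% at T1. Between strains, Nfatc2, an NFAT family member, was called lower in NOD at T0 (-0.37, adjusted p = 0.0292) and Rbpj, the Notch signalling factor, at T1 (-0.62, adjusted p = 0.0243). Nfatc2 lost its call without any one of NOD T0 replicates 1, 2 and 3 and B10 T0 replicates 1 and 2 (values -0.37 to -0.34), and Rbpj without any one of NOD T1 replicates 2 and 3 and B10 T1 replicate 2 (-0.64 to -0.47). With the mean of all probe sets of the gene, Rbpj differed by -0.27 (adjusted p = 0.222), and its call also ended under 75th percentile scaling (-0.58, adjusted p = 0.0641), with array weights (adjusted p = 0.0779) and with only the arrays compared (adjusted p = 0.124). Of 18 repressors, 5 rose and 7 fell in each strain, to be set against the same shares of all genes. Tbx21, which encodes the type 1 factor T-bet, rose by 3.15 in NOD and 2.47 in B10, and it was the repressor called between strains (-0.75 at T0, adjusted p = 0.0182). That call ended without NOD T0 replicate 1 (-0.64), NOD T0 replicate 3 (-0.76) or B10 T0 replicate 2 (-0.53). For these 4 lists limma made 0 calls on the response difference, with 3, 5, 2 and 1 genes at an unadjusted p under 0.05, in the order given. Without B10 T1 replicate 3, Il18r1 of the cytokine and receptor list was called there (-1.27, adjusted p = 0.0374).

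Markers of other cells that can make type 2 cytokines were read beside Il4. Among NK and NKT cell markers, 5 of 8 were lower in NOD at T0, where 2.35% of all genes were, and 2 at T1, where 1.83% were. Zbtb16, the transcription factor of innate-like NKT cells, which can hold preformed Il4 transcripts, was 6.40 and 6.44 at T1 in NOD, against 7.81 and 7.64 in B10. At T0 it was 7.14, 7.15 and 7.11 in NOD, against 8.90, 8.31 and 8.17 in B10. It was lower by 1.30 at T1 (adjusted p = 0.0027) and by 1.32 at T0 (adjusted p = 0.000325), with no overlap of strains. The NK receptor genes Klrb1c (-1.22), Klrd1 (-0.94) and Klrk1 (-0.46) and the granule gene Nkg7 (-1.15) were the others at T0, and Klrk1 at T1 (-0.77). Prf1, Ncr1 and Gzma were not called in either state. Their T0 means were 7.22, 4.71 and 5.63 in NOD, against 7.07, 4.77 and 5.69 in B10. The Klrk1 calls ended at T0 without any one of NOD T0 replicates 1, 2 and 3 and B10 T0 replicates 1 and 2, and at T1 without NOD T1 replicate 3 or B10 T1 replicate 2. The mean level of the 8 markers was 5.57 to 5.63 in NOD T1, 6.03 to 6.08 in NOD T0, 5.98 to 6.12 in B10 T1 and 6.61 to 6.77 in B10 T0. Their part in the Il4 difference was not tested.

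**Figure D4:**
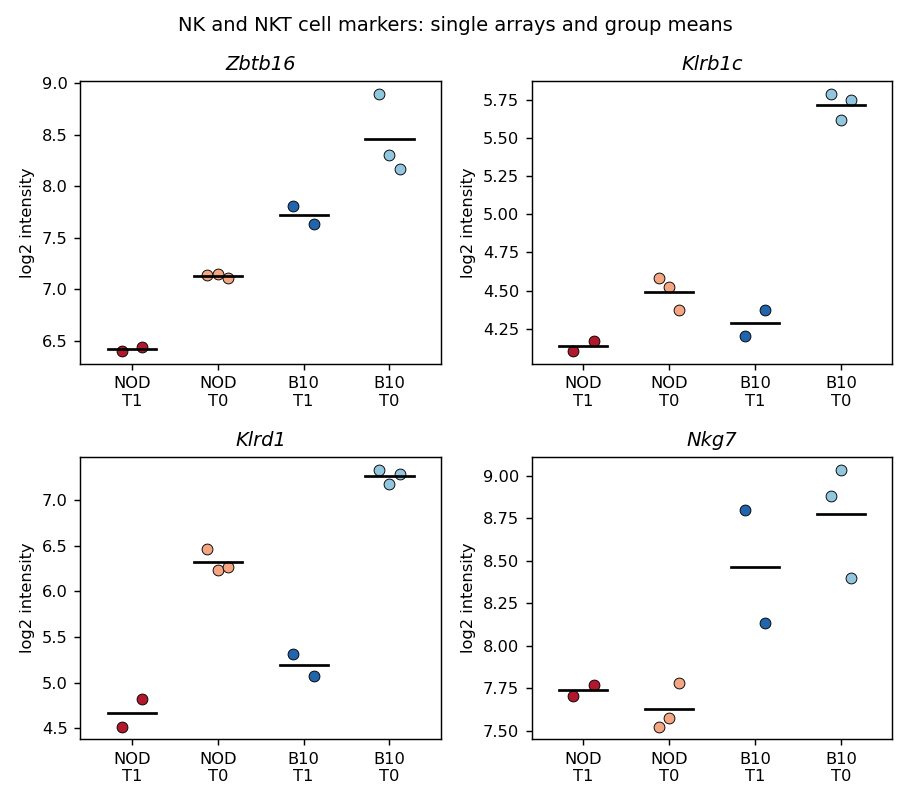
Log2 intensity of 4 of the 8 NK and NKT cell markers, chosen because they were called lower in NOD at T0, on each array (points) with group means (bars). Not shown are Klrk1, also called lower at T0, and Prf1, Ncr1 and Gzma, which were not called. Zbtb16 is lower on all NOD arrays (6.40 to 7.15) than on all B10 arrays (7.64 to 8.90).

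Of 5 measured markers of group 2 innate lymphoid cells, Rora (-0.59) and Klrg1 (-0.60) were lower in NOD at T0, and Klrg1 (-0.61) and Arg1 (-2.36) at T1. Il7r and Il17rb were not called in either state. Their means at T0 were 12.26 and 6.15 in NOD, against 12.02 and 6.40 in B10. At T1 they were 9.14 and 6.07 in NOD, against 9.53 and 6.04 in B10. The T1 mean of Rora was 9.02 in NOD and 9.01 in B10. Beside the counts of this paragraph, 3.44% of all genes were called higher and 2.35% lower in NOD at T0. At T1 these shares were 1.77% and 1.83%. Arg1, the arginase that such cells and macrophages express, read 6.33 and 6.15 at T1 in NOD, against 4.99, 5.29 and 5.25 at T0, and 8.72 and 8.48 at T1 in B10, against 5.53, 5.15 and 5.56 at T0. Its response was smaller in NOD by 2.12 ± 0.21 (log2, adjusted p = 0.00103). The Klrg1 call ended at T0 without NOD T0 replicate 3 or B10 T0 replicate 2, and at T1 without any array except B10 T1 replicate 3, B10 T0 replicate 1 and B10 T0 replicate 2. Basophil and mast cell markers, 9 in number, averaged 4.93 to 5.14 on all arrays, and limma called 0 of them between strains in either state, with 1 higher at T0 and 1 higher and 1 lower at T1 at an unadjusted p under 0.05, and 1 was called higher at T1 without NOD T1 replicate 3. Monocyte and macrophage markers were higher in NOD for 6 of 9 at T0 (3 without NOD T0 replicate 3 or B10 T0 replicate 1) and 1 of 9 at T1 (2 without NOD T1 replicate 2 or B10 T1 replicate 3), with means of 7.05 to 7.38 in NOD T1, 8.69 to 9.0 in NOD T0, 6.68 to 6.85 in B10 T1 and 7.86 to 8.31 in B10 T0. B cell markers were called between strains for 1 of 7 in each state, Cr2, a complement receptor, higher in NOD at T0 (adjusted p = 0.00333), and Cd79a, a B cell receptor chain, lower at T1 (-0.93, adjusted p = 0.00587), the T1 call ending without NOD T1 replicate 3 or B10 T1 replicate 2. Of 4 CD8 T cell markers, 1 was lower in NOD at T0 (0 without any one of NOD T0 replicates 1, 2 and 3 and B10 T0 replicates 1 and 2), and Crtam, a surface protein of activated T and NK cells, was lower at T1 (-1.01, adjusted p = 0.00489). Ccr3, the eotaxin receptor, was the 1 of 5 eosinophil markers called between strains, higher in NOD at T0 (0.91, adjusted p = 0.00821). Of 7 follicular helper T cell markers, limma called 0 between strains, with 1 higher and 1 lower at T0 and 2 lower at T1 at an unadjusted p under 0.05. Of these 7, 1 was called lower at T0 without either NOD T1 array, and 1 at T1 without NOD T1 replicate 2. The part of these cells in the strain differences was not tested.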

How the data were processed

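RNA of CD4-positive spleen cells was measured on 10 Affymetrix arrays, 1 a sample. The values are log2 intensities as deposited by the authors, made with RMA in Affymetrix Power Tools per the submitters' processing notes. Their version is not given in the sources used here, and base 2 is taken from their range. Of 35486 probe sets, 21789 have 1 gene symbol in the platform table, 1621 several and 12076 none listed. The probe set with the highest mean stood for each of 19938 genes.

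Group means were fitted to all 10 arrays with limma 3.58.1 in R 4.3.3 (lmFit, eBayes, 6 residual degrees of freedom, two-sided), without a filter, with Benjamini-Hochberg adjustment across all genes within each of 5 contrasts, which share arrays. The procedure was tested on simulated data. The number of arrays limits the precision. The members, the pathway and marker lists and the tests were chosen with earlier results of these data known. Named were the 9 members, genes of the lists, 12 chromosome neighbours on each side, and the 5 genes most like each cytokine. RefSeq (GRCm38.p6) gave gene order and promoters, with entries for 7 members.

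Replicate numbers recur between states. Deviations from group means correlated between T1 and T0 by -0.0145 and 0.219 in NOD and 0.413 and 0.404 in B10, not all above the minimum of 0.1, so the numbers were not taken to pair samples. Alternatives were 75th percentile scaling, the mean of probe sets, genes above the median level, trend and robust eBayes, array weights, only the arrays compared, a fixed block by replicate number across strains, a random block by strain and replicate number, and each array left out. Where that left 1 array at T1, it was assumed to vary like the other groups. The spread between the T1 arrays of that group then drops out of the error, so a call gained in such a fit is not support for a difference. Figures were drawn with matplotlib 3.10.9.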

Additional observations from a re-analysis of the deposited data

Results flagged for a closer look

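Of the members, neighbours and genes of the lists, 8 had a response to stimulation that differed between strains by limma's test of the difference itself (NOD response minus B10 response, log2). Of all genes, 0.0953% were called higher and 0.15% lower in this test. Il4 gave -1.88 and Il13 gave -1.70, both smaller in NOD. Csf2, the GM-CSF gene in the same chromosome region, gave -1.34, and Arg1 gave -2.12. Klrb1c, an NK cell receptor gene, gave 1.08, with differences of -0.36 in NOD and -1.43 in B10. This call ended without NOD T1 replicate 3 (1.04, adjusted p = 0.056) or B10 T1 replicate 2 (0.99, adjusted p = 0.0707). The NOD difference of Klrb1c was itself not called under 75th percentile scaling (-0.23, adjusted p = 0.104), with array weights, with a fixed replicate block, or without NOD T1 replicate 2 or NOD T0 replicate 1. Klrb1c read 4.10 and 4.17 at T1 in NOD, against 4.58, 4.52 and 4.37 at T0. In B10 it read 4.20 and 4.37 at T1, against 5.79, 5.62 and 5.75 at T0. Whether its low level in NOD at T0 limited a further fall was not tested. Among markers of other cells, Crtam gave -1.37, Cd79a -1.25 and Cr2 -1.44. Each of these 3 calls ended under 75th percentile scaling (adjusted p 0.0521 to 0.0829). Crtam also lost its call without any one of NOD T1 replicate 3, NOD T0 replicate 1 and B10 T1 replicate 2, Cd79a without any array except NOD T1 replicate 2, B10 T1 replicate 3 and B10 T0 replicate 2, and Cr2 without any array except NOD T0 replicate 2. No group has over 3 arrays, so single arrays were not tested for standing apart.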

How the results depend on the processing

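Of 791 recomputed member differences, 751 kept their side of the threshold, 34 lost a call, 6 gained one, and 0 of those called changed sign. No main result is paired, since the numbers were not shown to pair samples, and the replicate blocks are alternatives only. With a fixed replicate block, the Il4 response difference was -1.88 (adjusted p = 0.0261), and the calls of Il4ra on stimulation ended in NOD (0.35, adjusted p = 0.0586) and B10 (0.31, adjusted p = 0.107). The same block called Sowaha (1.08, adjusted p = 0.00105) and Slc22a4 (1.17, adjusted p = 0.00223) higher in NOD at T1, where the main count of neighbours called higher was 0, and ended the call of Nfatc2 at T0 (adjusted p = 0.0532). The count of members called on the response difference, 2 in the main analysis, was 1 with 75th percentile scaling (Il13 -1.64, adjusted p = 0.0829), 1 with trend and robust eBayes (Il4 -1.88, adjusted p = 0.0877), 1 with array weights (Il13 -1.59, adjusted p = 0.0557), and 0 to 3 with an array left out. Members higher in NOD at T0 numbered 0 among genes above the median level, where Kif3a was not tested, and 0 to 1 with an array left out, and members lower numbered 2 with array weights (Gata3 -0.27, adjusted p = 0.0365, joined Il4). Il5 at T1 lost its call with trend and robust eBayes (adjusted p = 0.0698) and with only the arrays compared (adjusted p = 0.106). Among all genes, calls at T0 numbered 1155, against 2316 with array weights and 571 to 1306 with an array left out. At T1 they numbered 718, against 292 with array weights, 128 with only the arrays compared and 184 to 889 with an array left out. For the response difference they numbered 49, against 31 with scaling, 102 with trend and robust eBayes, 31 with array weights and 13 to 69 with an array left out. Scaling split the calls into 397 higher and 269 lower at T1 (main 353 and 365) and 16 and 15 for the response difference (main 19 and 30). The cause of these changes was not tested. Signal over background is not used here, so calls on dim genes have an unknown limit.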
